A study of Mus musculus with 30 samples.

Results

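The genes described here are Mif, which encodes macrophage migration inhibitory factor, its homologue Ddt, the receptors Cd74, Cd44, Cxcr2 and Cxcr4, and the intracellular binding partner Cops5. They were chosen by name, with every array probe whose annotated symbol, or an older synonym of it, was 1 of these 7 of the 19057 genes on the array. This gave 21 probes, of which 18 passed the filter on low values, and each gene had at least 1 such probe. Expression was measured on 30 bead arrays in F4/80-positive macrophages sorted by flow cytometry from spleen (SP) or bone marrow (BM). All mice were C57BL/6 and carried the Eµ-TCL1 transgene (TCL1+/wt), in which the TCL1 oncogene is driven in B cells and produces a disease used as a model of chronic lymphocytic leukaemia. Mice were either Mif-/- (KO) or Mif+/+ (WT) and were taken during leukaemia (l) or without it (nl), which the design text calls prior to leukaemia. In spleen there were 4 KO-l, 3 WT-l, 3 KO-nl and 3 WT-nl arrays, and in marrow 6 KO-l, 5 WT-l, 3 KO-nl and 3 WT-nl arrays. The labels give an age of 2 to 5 months for leukaemic mice and 10 to 15 months for non-leukaemic mice, so age and leukaemia cannot be told apart in any leukaemia comparison. With these ages the mice called prior to leukaemia were the older ones, and whether the age labels were exchanged could not be settled. The transgene is present in the WT and non-leukaemic mice too, and the labels name no cell type to which the loss of Mif is restricted.

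Mif is a secreted cytokine, made by macrophages, B cells and many other cells, and is also a tautomerase enzyme. It binds Cd74, the invariant chain of MHC class II, on the cell surface. Cd74 signals together with Cd44, a hyaluronan receptor, towards kinase cascades and cell survival, and Mif also engages the chemokine receptors Cxcr2 and Cxcr4. Ddt, the D-dopachrome tautomerase, is the closest homologue of Mif and also binds Cd74. Cops5, also called Jab1, is the catalytic subunit of the COP9 signalosome, which removes Nedd8 from cullins, and is bound by Mif inside the cell.

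Mif and Ddt lie near each other on mouse chromosome 10, with 4 protein-coding genes between them. The 250 bases upstream of their annotated starts are shown because the genes are homologous neighbours. The part of these bases in any difference given below was not tested. The sequences are those of RefSeq for GRCm38.p6, on the minus strand, at chr10:75860278-75860527 for Mif and chr10:75773375-75773624 for Ddt. Capitals mark matches, on either strand, to the cyclic AMP response element TGACGTCA, the GC box GGGCGG and the hypoxia response core ACGTG.
Mif: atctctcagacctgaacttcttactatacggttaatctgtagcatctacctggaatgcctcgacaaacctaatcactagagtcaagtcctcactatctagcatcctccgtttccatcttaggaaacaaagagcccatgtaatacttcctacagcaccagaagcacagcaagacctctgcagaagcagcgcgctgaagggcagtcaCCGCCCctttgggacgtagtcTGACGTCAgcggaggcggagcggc
Ddt: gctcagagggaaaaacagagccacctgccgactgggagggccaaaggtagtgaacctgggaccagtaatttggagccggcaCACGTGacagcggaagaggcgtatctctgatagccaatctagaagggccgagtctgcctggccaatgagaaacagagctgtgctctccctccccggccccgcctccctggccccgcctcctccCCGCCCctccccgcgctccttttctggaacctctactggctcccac
The Mif window held a cyclic AMP response element at bases 17 to 24 before the start and a GC box at bases 40 to 45. The Ddt window held a GC box at bases 41 to 46, and overlapping matches of the hypoxia core on both strands of the same palindrome, at bases 164 to 168 and 165 to 169. Among 32851 promoter windows of this length, 1.55% held the cyclic AMP response element, 32.7% the GC box and 16.6% the hypoxia core. These are matches of letters and not measured binding sites. The probes' own sequences were not used here.

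All values below are normalised log2 intensities, a scale on which a difference of 1 is a doubling of brightness. A probe was detected on an array when the deposited detection p was under 0.05. Between 16492 and 18567 of 45281 probes were detected on an array. Adgre1, the gene of F4/80, averaged 8.62 to 9.98 over the 8 groups. Of the neutrophil markers, 16 of 17 were measured, each detected on at least 1 array of every group, and their mean per array ran from 5.92 to 11.88. Of the erythroid markers, 10 of 13 were measured, and their mean per array ran from 4.73 to 10.1. On 6 of the 30 arrays the most similar array was of the other tissue, among them KO-l-SP replicate 2, WT-l-SP replicate 3 and KO-nl-SP replicate 6. WT-nl-SP replicate 1 had the lowest median correlation with its own group, 0.92, and a mean of 10.12 over 15 macrophage markers, against 7.07 for the lowest array of that group. Slide 6 held 6 of the 11 leukaemic marrow arrays, 3 of each genotype, and no array of another group, so on that slide neither leukaemia nor tissue can be told apart from the slide. Many results that rest on these arrays are given with and without them, and the rest are given for all arrays only. Whether several arrays came from the same mouse is not stated in the labels, so a p-value here measures array-to-array spread, which may be technical. The number of arrays sets the precision.

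Mif was lower on each KO array than on any WT array, with group means apart by 6.59 to 7.37 on the log2 scale at its brighter probe. In leukaemic spleen that probe, ILMN_2867835, read 4.25, 4.17, 5.07 and 4.97 on the KO arrays, against 11.67, 11.90 and 12.39 on the WT arrays. In non-leukaemic spleen it read 5.02, 4.51 and 4.39 on the KO arrays, against 12.26, 10.41 and 11.03 on the WT arrays. No KO array of either spleen comparison came near a WT array. In leukaemic marrow the KO arrays ran from 4.14 through a median of 4.32 to 4.47, against 11.65, 12.10, 10.70, 11.52 and 11.10 on the WT arrays. In non-leukaemic marrow the KO arrays read 4.28, 4.18 and 4.35, against 10.90, 10.58 and 11.51 on the WT arrays. The groups were as far apart in marrow as in spleen, with no overlap. The probe was detected on 5 of 16 KO arrays and on all 14 WT arrays. Of those 5 KO arrays, 4 were from spleen and 1 from leukaemic marrow, and all were at least 5 log2 units below the lowest WT array.

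By limma with Benjamini-Hochberg adjustment over the 23515 kept probes, Mif at ILMN_2867835 fell by 7.37 ± 0.34 (SE) in leukaemic spleen (KO n = 4, WT n = 3, adjusted p = 4.32e-13) and by 6.59 ± 0.36 in non-leukaemic spleen (n = 3 each, adjusted p = 2.52e-11). It fell by 7.09 ± 0.27 in leukaemic marrow (KO n = 6, WT n = 5, limma adjusted p = 4.68e-15). In non-leukaemic marrow, where no KO array detected it, Mif was at least 95.2-fold lower in KO, with an adjusted p of 1.6e-11 from limma. Between group means on the same slide, many of them of 1 array, the difference for this probe was between -5.39 and -7.51. Xist, which is transcribed from the inactive X chromosome in females, was detected on 0 of 4 KO-l-SP arrays against all 3 WT-l-SP arrays, so sex and genotype go together in leukaemic spleen. In non-leukaemic marrow, the setting of the bound above, Xist was detected on no array of either genotype. In the other settings Xist was detected on 0 of 3 KO-nl-SP against 1 of 3 WT-nl-SP arrays, and on 1 of 6 KO-l-BM against 3 of 5 WT-l-BM arrays, and the part of sex in these differences was not tested. Groups that did not overlap, lower in KO, were found for 3.01% of all kept probes in leukaemic spleen, 5.08% in non-leukaemic spleen, 0.191% in leukaemic marrow and 9.07% in non-leukaemic marrow.

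The dimmer Mif probe, ILMN_1260512, was detected on 0 of 16 KO arrays and on all 14 WT arrays. It read 4.10 to 4.296 over the KO arrays and 5.80 to 7.05 over the WT arrays, again without overlap. Its level was at least 5.48-fold lower in KO than in WT in leukaemic spleen, 3.49-fold in non-leukaemic spleen, 4.27-fold in leukaemic marrow and 3.59-fold in non-leukaemic marrow. The limma adjusted p was between 2.48e-10 and 1.72e-06. These folds are lower bounds, since a probe at background gives no level in KO. No source used here gives the position of the deletion within Mif, so the probes show how much Mif RNA was measured but not which part of the gene was lost.

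The Mif probes were the 2 of 18 member probes called in each KO-against-WT comparison, both lower in KO. Over all kept probes, 0.051% were called in leukaemic spleen, 0.242% in non-leukaemic spleen, 0.0553% in leukaemic marrow and 0.0893% in non-leukaemic marrow. For the mean of the 4 settings (both tissues, with and without leukaemia), in which Mif at ILMN_2867835 fell by 6.95 ± 0.17 (limma adjusted p = 1.08e-19), 0.723% were called. None of the 16 probes of the other members was called by limma in any of these 5 comparisons, where 0 or 1 of them had an unadjusted p under 0.05. Their lowest adjusted p was 0.462. With arrays weighted by quality, Cd44 at ILMN_2754990 and Cops5 at ILMN_1218536 were also called in non-leukaemic marrow, at 0.93 (adjusted p = 0.0141) and 0.63 (adjusted p = 0.0226), while 8.5% of all probes were called with those weights.

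**Figure D1:**
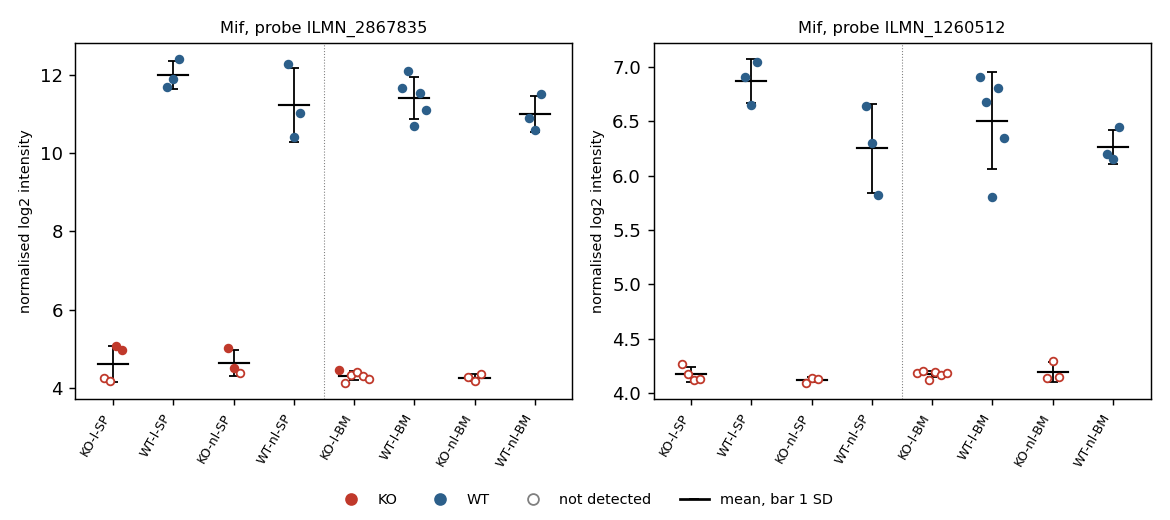
Normalised log2 intensity of both Mif probes (y axis) on each of the 30 arrays, by group (x axis, spleen left of marrow, KO left of WT). Filled points were detected and open points were not, and the bar is the mean with 1 SD; the brighter probe reads 4.14 to 5.07 on KO arrays and 10.41 to 12.39 on WT arrays.

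Within the WT arrays, the order of mean Mif at ILMN_2867835 was leukaemic spleen (11.98), leukaemic marrow (11.41), non-leukaemic spleen (11.23) and non-leukaemic marrow (10.99), and the ranges of neighbours in that order overlapped. Leukaemia in WT spleen went with a log2 difference of 0.75 ± 0.36 at this probe (limma adjusted p = 0.337) and 0.61 ± 0.20 at ILMN_1260512 (adjusted p = 0.148). Without WT-nl-SP replicate 1, which read 12.26 at ILMN_2867835, the difference at that probe was 1.27 (limma adjusted p = 0.206). With the authors' log2 values the difference at ILMN_1260512 was called, at 0.41 (adjusted p = 0.00828). All 3 leukaemic arrays, at 6.90, 6.65 and 7.05, read above the highest non-leukaemic array, at 6.64, for ILMN_1260512, but at ILMN_2867835 the groups overlapped. In this comparison 15% of all kept probes had groups that did not overlap, and Cops5 at ILMN_2662124 was among them, at 8.34 to 8.73 in WT-l and 8.28 to 8.32 in WT-nl spleen. In WT marrow the leukaemia difference was 0.42 ± 0.32 (adjusted p = 0.634) at ILMN_2867835, and 0.88 (adjusted p = 0.859) without slide 6. The spleen-over-marrow difference of Mif at ILMN_2867835 was 0.57 ± 0.32 in leukaemic WT mice (limma adjusted p = 0.59) and 0.24 ± 0.36 in non-leukaemic WT mice (adjusted p = 0.811). For non-leukaemic WT mice this value is not given without WT-nl-SP replicate 1. Xist was detected on all 3 WT-l against 1 of 3 WT-nl spleen arrays, and on 3 of 5 WT-l against 0 of 3 WT-nl marrow arrays. The part of sex in the leukaemia differences, here and below, was not tested.

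The genes whose level followed Mif most closely over the 30 arrays, among 11936 others, were 1190007I07Rik (Pearson r = 0.947, Spearman rho = 0.699), Trappc2l (r = 0.806) and Zfp979 (r = 0.794). The points share the split into KO and WT arrays, which sets most of the range of Mif. Of the 10 measured genes on each side of Mif on chromosome 10, Ddt among them, none of the 20 was called by limma in any KO-against-WT comparison, where 0.0419% of all genes were called in leukaemic spleen, 0.276% in non-leukaemic spleen, 0.0419% in leukaemic marrow, 0.0754% in non-leukaemic marrow and 0.737% over the 4 settings. 1190007I07Rik, named above, lies on the same chromosome but was not among these 20. Genes farther from Mif on the chromosome were not examined as a set. The differences of the 20 over the 4 settings ran from -0.27 (Pcbp3, unadjusted p = 0.0169) to 0.18 (Chchd10). Zfp280b, at -0.20, was the other neighbour with an unadjusted p under 0.05.

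Ddt, the homologue that shares the receptor Cd74, was a dim transcript with no called difference. Its single probe, ILMN_2596297, was detected on 29 of 30 arrays and read between 4.36 and 6.09. In spleen it read 4.73, 5.22, 4.84 and 5.03 on KO-l arrays, against 5.46, 5.11 and 4.67 on WT-l arrays, and 4.93, 4.87 and 5.21 on KO-nl arrays, against 5.58, 5.10 and 5.08 on WT-nl arrays. KO and WT overlapped in both. In marrow it ran from 4.61 through a median of 5.36 to 6.09 on KO-l arrays, against 5.04, 4.69, 5.68, 5.46 and 5.65 on WT-l arrays, and read 4.36, 5.12 and 4.51 on KO-nl arrays, against 4.84, 4.83 and 5.03 on WT-nl arrays. Here too KO and WT overlapped.

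Over the 4 settings the KO-minus-WT difference of Ddt was -0.15 ± 0.15, with a 95% interval from -0.46 to 0.16 (limma adjusted p = 0.87). The intervals of the single settings ran from -0.92 to 0.50. Leukaemia in marrow went with a Ddt difference of 0.52 ± 0.20 over both genotypes (adjusted p = 0.198), and in spleen with -0.11 ± 0.22 (adjusted p = 0.863). On slide 6 the 6 leukaemic marrow arrays read 5.46 to 6.09, against 4.61 to 5.04 on the other 5 leukaemic marrow arrays and 4.36 to 5.12 on the 6 non-leukaemic marrow arrays. Without slide 6 the marrow difference was 0.03 ± 0.16. It was -0.04 with slide as a block, and between group means on the same slide it was 0.21 and -0.34 in WT and 0.68 in KO, each of 1 array against 1. With array weights it was called, at 0.65 (adjusted p = 0.0124), while 15.2% of all probes were called. The leukaemia effect in spleen minus that in marrow was -0.64 ± 0.30 (adjusted p = 0.394), and -0.15 without slide 6. With the authors' log2 values the spleen-over-marrow mean of Ddt was called at 0.11 (adjusted p = 0.00796), against 0.03 ± 0.15 here and 0.27 without slide 6, while 23.9% of all probes were called with the authors' values. Fcf1 (r = 0.89), Slc25a3 (r = 0.851) and Ftl1 (r = 0.845) followed Ddt most closely over the 30 arrays, which share the same hybridisation and normalisation.

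Cd74, the receptor and MHC class II invariant chain, was detected by all 3 probes on all 30 arrays and varied over 5.16 log2 units at the brightest of them, ILMN_1221817. In spleen it read 13.61, 11.86, 12.33 and 12.78 on KO-l arrays, against 12.93, 12.21 and 11.64 on WT-l arrays, and 13.03, 11.67 and 13.53 on KO-nl arrays, against 9.24, 12.56 and 13.79 on WT-nl arrays. The 9.24 of WT-nl-SP replicate 1 was the lowest spleen value. In marrow it ran from 8.64 through a median of 11.04 to 12.17 on KO-l arrays, against 10.12, 9.19, 11.37, 12.27 and 11.81 on WT-l arrays, and read 10.92, 12.33 and 11.66 on KO-nl arrays, against 11.92, 12.18 and 10.96 on WT-nl arrays. Within each tissue the genotypes overlapped, and neighbours in the order of the 8 group means overlapped throughout.

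Over the 4 settings Cd74 differed between KO and WT by 0.28 ± 0.44 (95% interval -0.62 to 1.18, limma adjusted p = 0.926). This was -0.05 without WT-nl-SP replicate 1 and 0.76 without slide 6. The spleen-over-marrow difference, as the mean of the 4 settings, was 1.09 ± 0.44 (adjusted p = 0.1) at ILMN_1221817, 1.18 ± 0.43 (adjusted p = 0.0712) at ILMN_3089584 and 1.28 ± 0.51 (adjusted p = 0.0998) at ILMN_1247832. With each array left out in turn, 9.57% to 15% of all kept probes were called in this mean. None of the Cd74 probes passed the threshold with all arrays, and all pointed the same way. Without WT-nl-SP replicate 1 each of them was called: ILMN_1221817 at 1.42 with an adjusted p of 0.0167, ILMN_3089584 at 1.51 with an adjusted p of 0.00909, and ILMN_1247832 at 1.67 with an adjusted p of 0.0159. On that array the 16 neutrophil markers averaged 5.92 and the 15 macrophage markers 10.12, against 7.07 and 8.08 for the macrophage markers of the other WT-nl-SP arrays. The part of cell composition in the Cd74 values was not tested. In RNA from a sorted population, fewer cells that make a transcript and less of it per cell cannot be told apart, for Cd74 as for the other members. Leukaemia differences of Cd74 were -0.76 ± 0.59 in marrow and 0.15 ± 0.65 in spleen (adjusted p = 0.547 and 0.951 by limma). Without slide 6 the marrow value was -1.09, and the spleen value was -0.51 without WT-nl-SP replicate 1 and 0.63 without WT-nl-SP replicate 3.

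The genes that followed Cd74 most closely were its class II partners H2-Ab1 (Pearson r = 0.985, Spearman rho = 0.976) and H2-Eb1 (r = 0.969), the chains of the peptide-presenting molecules that Cd74 escorts, and Ciita (r = 0.909), their transcriptional activator. H2-Ab1 averaged 13.07 ± 0.78 in KO-l and 12.68 ± 0.64 in WT-l spleen, and 10.88 ± 1.30 in KO-l and 11.10 ± 1.21 in WT-l marrow (SD, n = 4, 3, 6 and 5). Of 15 measured genes of MHC class II presentation, 5 were called higher in spleen than in marrow over the 4 settings and none lower, with a median of 0.80, while 14.7% of all 11937 genes were called and their median was 0.0092. With WT-nl-SP replicate 1 and KO-l-SP replicate 2 left out, a pair chosen after seeing the data, 11 of the 15 were called higher, and 17.1% of all genes were called. Without slide 6, 6 of the 15 were called higher, and 9.43% of all genes were called. With all arrays, in the mean of the 4 settings, 6 of 15 measured macrophage markers (median 0.92), 3 of 8 dendritic cell markers (median 0.49), 1 of 9 T and NK cell markers (median 0.91) and 1 of 8 B cell markers were called higher in spleen. Without slide 6 these counts were 3 of 15, 3 of 8, 2 of 9 and 1 of 8, against 9.43% of all genes called. The dendritic cell markers averaged 5.31 to 7.25 per array in KO-l and 5.44 to 6.73 in WT-l spleen, and 5.53 to 6.75 in KO-nl and 6.06 to 7.45 in WT-nl spleen. In marrow they averaged 5.02 to 6.20 over the leukaemic arrays and 5.45 to 6.17 over the non-leukaemic arrays. The part of these cells in the class II values was not tested. Of the class II genes called higher in spleen, the 4 with the smallest p were Lgmn, a protease that trims the invariant chain (1.41, limma adjusted p = 0.000784), H2-Ob (1.31, adjusted p = 0.00548) and H2-Oa (1.59, adjusted p = 0.028), the chains of H2-O, and Ciita (1.63, adjusted p = 0.0186). None of the 15 was called by limma between KO and WT over the 4 settings. The smallest p there were those of Rfxap, a subunit of the RFX complex at class II promoters (0.21, limma adjusted p = 0.592), and Ciita (0.55, adjusted p = 0.824).

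**Figure D2:**
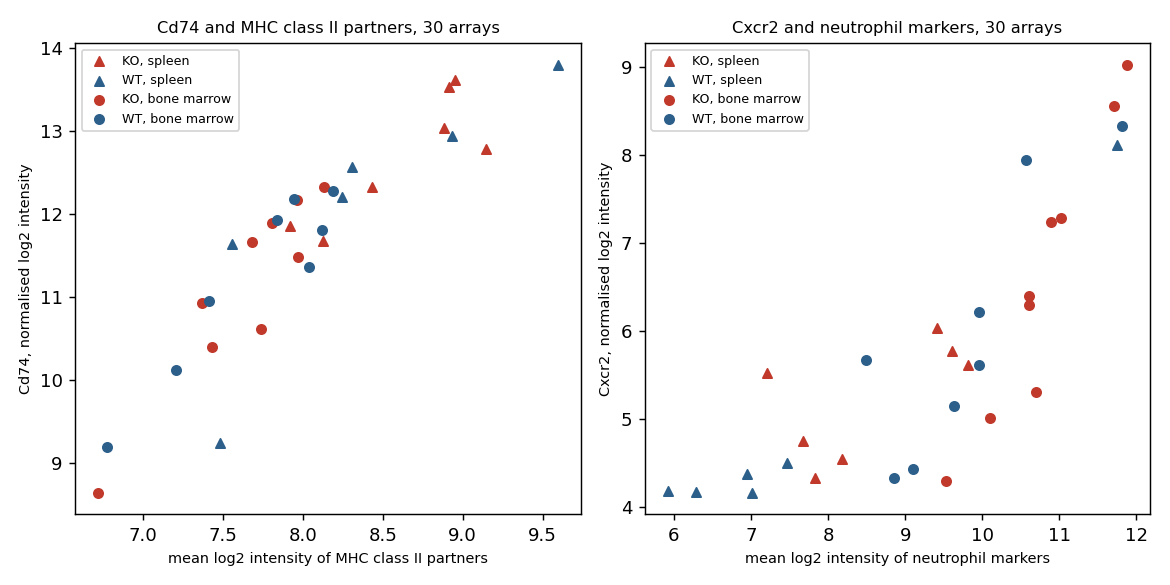
Left, Cd74 at ILMN_1221817 (y axis, normalised log2 intensity) against the mean of 15 MHC class II genes (x axis) on 30 arrays; right, Cxcr2 at ILMN_1223834 against the mean of 16 neutrophil markers. Triangles are spleen and circles marrow, red is KO and blue WT; Cd74 reaches 13.79 in spleen, and the highest Cxcr2 value, 9.03, is a KO-l-BM array.

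Cd44, the co-receptor of Cd74, had 9 probes, of which 4 were detected on all 30 arrays, 3 on 3 to 11 arrays and 2 on 1 array each, below the filter. The brightest probe, ILMN_1223697, read 10.86, 9.82, 10.29 and 11.02 on KO-l spleen arrays, against 11.14, 10.54 and 9.73 on WT-l spleen arrays. It read 11.26, 11.54 and 10.01 on KO-nl spleen arrays, against 10.09, 11.22 and 10.75 on WT-nl spleen arrays. Each spleen group held arrays both above 10.5 and near 10. In marrow the probe ran from 9.91 through a median of 10.09 to 10.17 on KO-l arrays, against 10.22, 10.26, 10.24, 10.00 and 9.93 on WT-l arrays, and read 10.34, 10.12 and 10.24 on KO-nl arrays, against 10.31, 10.10 and 10.44 on WT-nl arrays. All marrow values lay between 9.91 and 10.44, and of the 13 spleen arrays 8 read above that band, 3 within it (KO-l-SP replicate 3, KO-nl-SP replicate 6 and WT-nl-SP replicate 1) and 2 below it (KO-l-SP replicate 2 and WT-l-SP replicate 3).

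The spleen-over-marrow difference of Cd44 at ILMN_1223697, as the mean of the 4 settings, was 0.47 ± 0.16 with a 95% interval from 0.14 to 0.79 (limma adjusted p = 0.0523), just above the threshold. The spleen group means were the highest of the 8, from 10.94 in KO-nl to 10.47 in WT-l, and the marrow means ran from 10.28 in WT-nl to 10.08 in KO-l. The value was called without KO-l-SP replicate 2 (0.52, adjusted p = 0.0213), without KO-nl-SP replicate 6 (0.58, adjusted p = 0.00669), without WT-l-SP replicate 3 (0.56, adjusted p = 0.0133) and without WT-nl-SP replicate 1 (0.54, adjusted p = 0.0249). Each array named here was the lowest of its spleen group at this probe, so leaving it out raised the spleen mean. Leaving out any other array gave no call. With each array left out in turn, 9.57% to 15% of all probes were called in this mean. Between group means on the same slide, within single settings, the difference lay between -0.10 and 1.14. The second probe, ILMN_3114585, gave 0.56 ± 0.23 (adjusted p = 0.112) over the 4 settings, and in leukaemic KO mice 0.99 ± 0.39 (adjusted p = 0.159), which was called without KO-l-SP replicate 2 (1.48, adjusted p = 0.0176). ILMN_2474229, also detected on all arrays, gave -0.24 ± 0.23 over the 4 settings and 0.15 without slide 6, where the 6 leukaemic marrow arrays read 6.15 to 7.06, against 4.95 to 5.59 on the other 5. Without slide 6 the other probes gave 0.43 (ILMN_1223697) and 0.41 (ILMN_3114585) over the 4 settings, and ILMN_3114585 gave 0.63 in leukaemic KO mice. The KO-minus-WT difference at ILMN_1223697 was 0.05 ± 0.16 over the 4 settings (95% interval -0.28 to 0.37). At ILMN_3114585 the KO and WT means were 10.315 and 9.30 in non-leukaemic spleen, and 9.83 and 9.78 in leukaemic spleen. In marrow they were 9.47 and 9.50 without leukaemia, and 8.84 and 9.19 with it.

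Col4a1 (r = 0.919), Mtmr10 (r = 0.869) and Capsl (r = 0.864) followed Cd44 most closely over the 30 arrays. Among 12 measured genes for Cd44 ligands and processing enzymes, none was called by limma between KO and WT, with leukaemia over both genotypes, or between tissues over the 4 settings. The smallest tissue p were those of Rdx, the cytoskeletal linker radixin (-0.17, unadjusted p = 0.00796, adjusted p = 0.0581), and Srgn, the proteoglycan serglycin (0.45, unadjusted p = 0.00885, adjusted p = 0.0621).

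Cxcr2, the chemokine receptor of neutrophils that also binds Mif, had the largest standard error of all member probes in the mean comparisons, 0.52. Its probe ILMN_1223834 was detected on 22 of 30 arrays, and its second probe, ILMN_2737157, on 0. In spleen the first probe read 4.33, 5.61, 6.03 and 5.52 on KO-l arrays, against 4.38, 4.17 and 8.12 on WT-l arrays, and 4.55, 4.76 and 5.77 on KO-nl arrays, against 4.19, 4.51 and 4.16 on WT-nl arrays. The KO-nl spleen arrays all read above the WT-nl spleen arrays, while the leukaemic groups overlapped. Groups that did not overlap in either direction were found for 10.6% of all kept probes in that comparison. In marrow it ran from 4.303 through a median of 6.82 to 9.03 on KO-l arrays, against 4.43, 8.33, 5.68, 7.95 and 5.15 on WT-l arrays, and read 8.56, 5.01 and 5.31 on KO-nl arrays, against 5.62, 6.22 and 4.33 on WT-nl arrays. The KO and WT marrow arrays overlapped in both.

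The KO-minus-WT difference of Cxcr2 was 0.48 ± 0.52 over the 4 settings (95% interval -0.60 to 1.56, limma adjusted p = 0.886), 0.19 without slide 6, and 0.74 ± 1.13 in non-leukaemic spleen. The spleen-over-marrow difference was -1.13 ± 0.52 (adjusted p = 0.16), and without WT-l-SP replicate 3, the array at 8.12, it was -1.45 (adjusted p = 0.048). The 3 genes most like Cxcr2 were Mmp9, a neutrophil gelatinase (r = 0.95, rho = 0.906), Amer2 (r = 0.918) and Asprv1 (r = 0.913). Of 16 measured neutrophil markers, 13 were called lower in spleen than in marrow over the 4 settings, with a median of -2.42, against 14.7% of all genes called. Without slide 6, 9 of the 16 were called lower, with a median of -2.52, against 9.43% of all genes called. With all arrays, Mpo, the myeloperoxidase of primary granules, was lower by 3.28 ± 0.53 (limma adjusted p = 0.000256), and Elane, neutrophil elastase, by 3.18 ± 0.56 (adjusted p = 0.000523). Between KO and WT none of the 16 was called, with 15 of the differences above 0 over the 4 settings and a median of 1.00, and the smallest p were those of S100a8 (1.31, unadjusted p = 0.00399) and Camp (1.85, unadjusted p = 0.00567). Without slide 6 the median between KO and WT was 0.58. The mean of the 16 markers per array ran from 7.21 to 9.81 in KO-l and 6.29 to 11.75 in WT-l spleen, and from 7.68 to 9.61 in KO-nl and 5.92 to 7.46 in WT-nl spleen. In marrow it ran from 9.53 to 11.88 in KO-l and 8.49 to 11.81 in WT-l, and from 10.10 to 11.71 in KO-nl and 8.85 to 9.96 in WT-nl. The part of these cells in the Cxcr2 values was not tested.

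Cxcr4, the receptor of the chemokine Cxcl12 and of Mif, was detected on all 30 arrays by its single probe, ILMN_2630459, and 29 of them lay between 8.34 and 9.79. In spleen it read 9.34, 8.84, 8.93 and 9.70 on KO-l arrays, against 8.82, 9.52 and 9.07 on WT-l arrays, and 9.48, 9.15 and 8.65 on KO-nl arrays, against 5.26, 9.62 and 8.82 on WT-nl arrays. The value of 5.26 on WT-nl-SP replicate 1 stood apart from every other array. In marrow it ran from 9.29 through a median of 9.36 to 9.65 on KO-l arrays, against 9.29, 9.64, 8.34, 8.92 and 9.07 on WT-l arrays, and read 9.63, 9.72 and 9.56 on KO-nl arrays, against 9.79, 9.69 and 9.53 on WT-nl arrays. On that array the 15 macrophage markers averaged 10.12, against 6.13 to 8.08 on the others, and their part in the Cxcr4 value was not tested. The genotypes overlapped in each setting.

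The KO-minus-WT difference of Cxcr4 was 0.40 ± 0.28 over the 4 settings (95% interval -0.17 to 0.97, limma adjusted p = 0.765), and 0.07 without WT-nl-SP replicate 1. In WT-nl mice the spleen-over-marrow difference was -1.77 ± 0.60 (adjusted p = 0.102). It was -0.45 without WT-nl-SP replicate 1, and -2.63 (called, adjusted p = 0.00701) without WT-nl-SP replicate 2, so the value depended on the array at 5.26. Over the 4 settings it was -0.61 ± 0.28 (adjusted p = 0.149), called without WT-nl-SP replicate 2 at -0.83 (adjusted p = 0.0224), and -0.28 (adjusted p = 0.163) without WT-nl-SP replicate 1. The authors' log2 values gave -1.36 (adjusted p = 0.00913) in WT-nl mice and -0.64 (adjusted p = 0.00387) over the 4 settings, both called. The closest genes, 4930523C07Rik (r = 0.896), Glipr2 (r = 0.893) and Sema4a (r = 0.891), had Spearman rho of only 0.461, 0.404 and 0.374, and their points share that array. Cxcl12, the ligand, was called lower in spleen than in marrow over the 4 settings, by 1.32 ± 0.16 (limma adjusted p = 1.73e-05). It was 1 of 8 measured chemokine partners of Cxcr2 and Cxcr4, against 14.7% of all genes called. None of the 8 was called between KO and WT, where Ppbp was at 0.38 (unadjusted p = 0.0304) and Cxcl2 at -0.55 (unadjusted p = 0.22). With leukaemia in marrow Cxcl2, a ligand of Cxcr2, was at 1.97 ± 0.59 (limma adjusted p = 0.13).

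**Figure D3:**
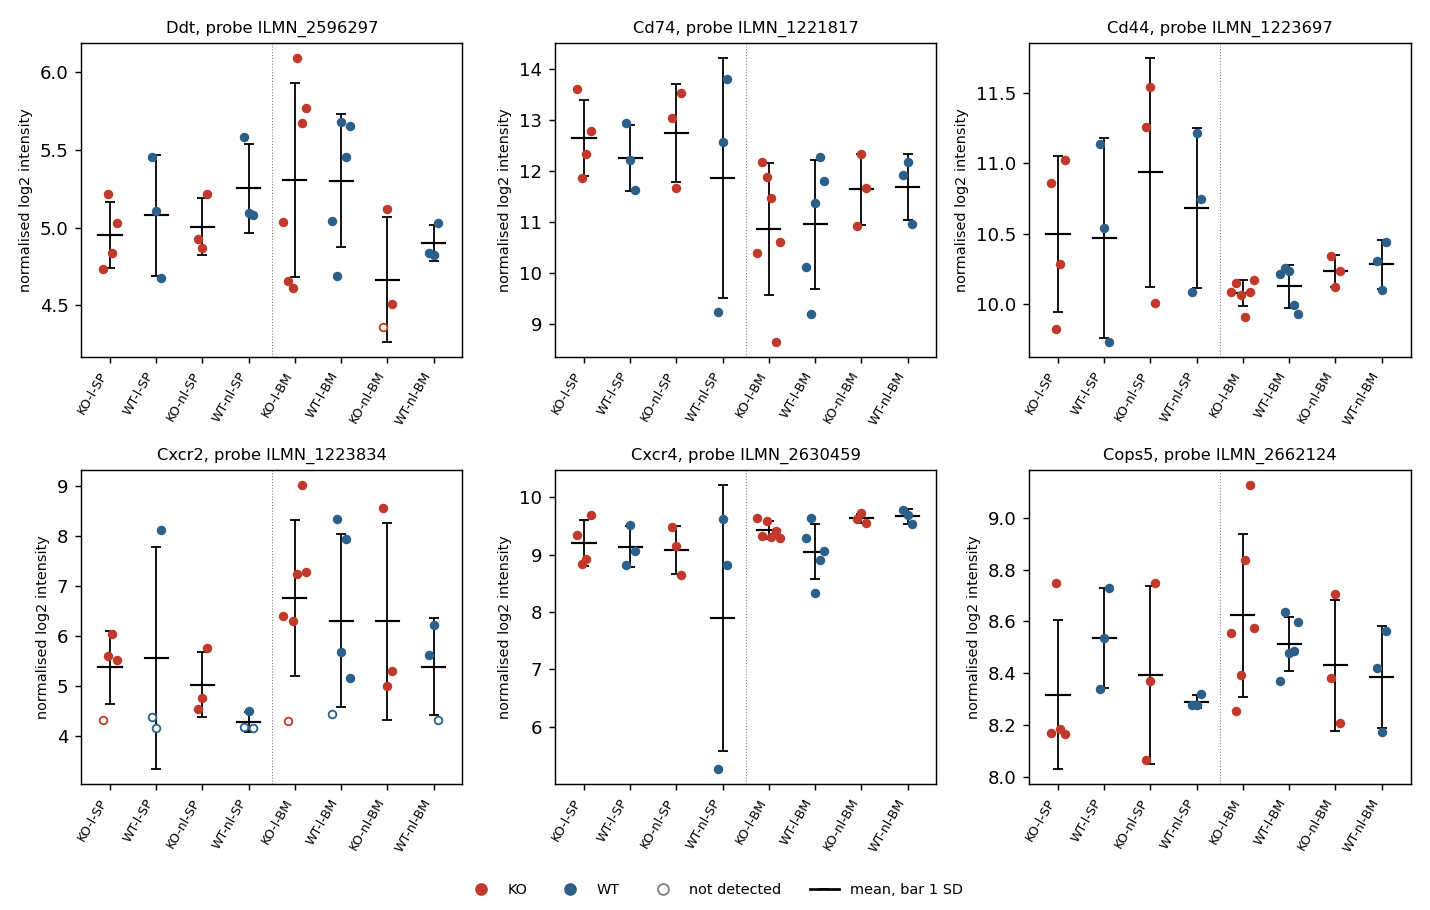
Normalised log2 intensity (y axis, a separate scale per panel) of the brightest probe of Ddt, Cd74, Cd44, Cxcr2, Cxcr4 and Cops5 on each of 30 arrays by group (x axis, spleen left of marrow, KO left of WT). Filled points were detected, open points were not, and bars are the mean with 1 SD; KO and WT overlap in every setting but non-leukaemic spleen for Cxcr2, and the WT-nl-SP array at 5.26 stands apart for Cxcr4.

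Cops5 had the narrowest range over the arrays, 1.06, among the brightest probes of the members. All 3 Cops5 probes were detected on all 30 arrays, and ILMN_2662124 read between 8.06 and 9.13. In spleen it read 8.17, 8.75, 8.19 and 8.17 on KO-l arrays, against 8.34, 8.54 and 8.73 on WT-l arrays, and 8.06, 8.37 and 8.75 on KO-nl arrays, against 8.28, 8.28 and 8.32 on WT-nl arrays. KO-l-SP replicate 2 read above all WT-l spleen arrays and the other 3 KO-l arrays read below all of them. In marrow it ran from 8.25 through a median of 8.56 to 9.13 on KO-l arrays, against 8.37, 8.64, 8.48, 8.49 and 8.60 on WT-l arrays, and read 8.38, 8.71 and 8.21 on KO-nl arrays, against 8.42, 8.17 and 8.56 on WT-nl arrays. The genotypes overlapped in each setting.

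The KO-minus-WT difference of Cops5 over the 4 settings was 0.01 ± 0.09 at ILMN_2662124 (95% interval -0.18 to 0.20, limma adjusted p = 0.989), the narrowest interval among the brightest probes of the members other than Mif. In leukaemic spleen it was -0.22 ± 0.18 at ILMN_2662124 and -0.39 ± 0.16 at ILMN_1249524 (limma unadjusted p = 0.0248, adjusted p = 0.963). At the dimmer ILMN_1218536 it was 0.31 ± 0.26 there. In leukaemic KO mice the spleen-over-marrow difference was -0.46 ± 0.14 at ILMN_1249524 (adjusted p = 0.0728) and -0.31 ± 0.16 at ILMN_2662124 (adjusted p = 0.276). The first was called without KO-l-SP replicate 2, at -0.58 (adjusted p = 0.0162), and the dimmer ILMN_1218536 gave 0.15 ± 0.22. Without slide 6 these values were -0.28 at ILMN_1249524 and -0.08 at ILMN_2662124. With array weights, leukaemia in marrow called ILMN_1249524 at 0.28 (adjusted p = 0.027), against 0.22 ± 0.11 here and 0.08 without slide 6. Ccnh (r = 0.815), Pgk1 (r = 0.812) and Apex1 (r = 0.807) followed Cops5 most closely over the 30 arrays.

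Of the 9 other COP9 signalosome subunits, none was called by limma between KO and WT, with leukaemia over both genotypes, or between tissues over the 4 settings, where Cops6 was at -0.20 (unadjusted p = 0.0218). In leukaemia 0.00838% of all genes were called in marrow and 0% in spleen. Cops7a had the smallest p between KO and WT (-0.24, unadjusted p = 0.00865, adjusted p = 0.335), and Cops2 with leukaemia in marrow (-0.34, unadjusted p = 0.000725, adjusted p = 0.11). Among 9 measured cullins and neddylation genes, which encode the substrates of the signalosome and the enzymes that modify them, 2 were called lower in spleen over the 4 settings, Cul4b by 0.54 ± 0.09 (limma adjusted p = 0.000327) and Cul3 by 0.28 ± 0.07 (adjusted p = 0.0136), against 14.7% of all genes called. None of these was called between KO and WT.

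Of the other genes of the Mif pathway, some were called between tissues and none between genotypes over the 4 settings. Of 18 measured signalling targets of Mif, none was called between KO and WT over the 4 settings (12 above 0, median 0.02, all genes -0.0045), with Map2k2, a MAP kinase kinase, at 0.15 (unadjusted p = 0.0216). Between tissues 5 of the 18 were called higher in spleen, against 14.7% of all genes, and 3 without slide 6, against 9.43%. Some markers of macrophages, dendritic cells, T and NK cells and B cells were called higher in the same mean, as counted above. With all arrays, the counts for T and NK cells and for B cells were near the share of all genes called. The T and NK cell markers averaged 4.62 to 8.53 per spleen array, against 4.77 to 6.80 per marrow array. The part of these cells in the values of the signalling targets was not tested. The 4 with the smallest p were Dusp1, a MAP kinase phosphatase (1.05, limma adjusted p = 0.000461), Bcl2, a survival factor (0.81, adjusted p = 0.00408), Jun, a subunit of AP-1 (1.06, adjusted p = 0.00595), and Ccnd1, cyclin D1 (2.02, adjusted p = 0.00996). Of 5 regulators of Mif transcription, Uhrf1, an epigenetic factor of cycling cells, was called lower in spleen by 1.43 ± 0.37 (limma adjusted p = 0.012), and the other 4 were not called. With leukaemia in spleen Uhrf1 was at 2.08 ± 0.54 (adjusted p = 0.12), and with leukaemia in marrow Sp1 was at 0.58 ± 0.20 (adjusted p = 0.168). The value of Sp1 without slide 6 is not given here. The 5 regulators averaged 7.42 to 7.54 per leukaemic marrow array on slide 6, against 7.24 to 7.35 on the other leukaemic marrow arrays. On the non-leukaemic marrow arrays they averaged 7.01 to 7.33. The measured erythroid markers averaged 8.69 in KO-l, 8.58 in WT-l, 7.27 in KO-nl and 6.6 in WT-nl spleen. In marrow they averaged 8.43 in KO-l, 7.90 in WT-l, 8.86 in KO-nl and 9.62 in WT-nl. The part of erythroid cells in the Uhrf1 values was not tested. Of 8 measured genes for export and binding partners of Mif, none was called for genotype, tissue or leukaemia. Uso1, a vesicle tethering factor, was at 0.25 (unadjusted p = 0.0152) between KO and WT. Hsp90aa1, a chaperone of Mif, was at 0.67 (unadjusted p = 0.00687) with leukaemia in marrow, and its value without slide 6 is not given here. The 8 genes averaged 8.26 to 8.35 per leukaemic marrow array on slide 6, against 7.78 to 7.94 on the other leukaemic marrow arrays. On the non-leukaemic marrow arrays they averaged 7.68 to 7.90.

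No member probe was called by limma in any of the 6 leukaemia comparisons. Over all kept probes 0.0298% were called in WT spleen, 0% in KO spleen, 0.0298% in WT marrow, 0% in KO marrow, 0% in spleen over both genotypes and 0.0255% in marrow over both genotypes. Of the 16 probes of members other than Mif, 1 to 4 had an unadjusted p under 0.05 in each of these comparisons, and 4 in marrow over both genotypes. The share of all probes under that unadjusted threshold is not given here. Intervals remained wide, from -1.18 to 1.48 for Cd74 in spleen over both genotypes, so the p-values do not show that leukaemia left these genes as they were.

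Between tissues no member probe was called by limma either. The share of all probes called was 0.00425% in leukaemic WT, 1.83% in leukaemic KO, 3.26% in non-leukaemic WT, 0% in non-leukaemic KO and 12.5% for the mean of the 4 settings. In that mean 7 of the 16 probes had an unadjusted p under 0.05, several of them probes of the same gene (Cd74 and Cd44). The share of all probes under that unadjusted threshold is not given here, so this count has no background beside it. The smallest limma p was that of Cd44 at ILMN_1223697 (unadjusted p = 0.00671). With WT-nl-SP replicate 1 and KO-l-SP replicate 2 left out, a choice made after seeing the data, 5 member probes were called higher in spleen over the 4 settings. These were the 3 of Cd74 (1.49 to 1.79) and 2 of Cd44 (0.60 and 0.74), while 14.7% of all probes were called. WT-l-SP replicate 3 was kept in that setting. Its median correlation with its own group was 0.936, below the 0.947 of KO-l-SP replicate 2. Without slide 6, also chosen after seeing the data, no member probe was called between tissues or with leukaemia, and 7.78% of all probes were called in the tissue mean.

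The KO-against-WT difference was tested for change with leukaemia and with tissue. No member probe was called, and 0% of all probes were called, in the contrasts of leukaemic minus non-leukaemic and spleen minus marrow effects of Mif loss. For Mif itself at ILMN_2867835 these differences were -0.57 ± 0.33 (limma adjusted p = 0.878) and -0.07 ± 0.33 (adjusted p = 0.987). The difference of the leukaemia effect between spleen and marrow also called 0% of probes and no member, with Cxcr4 at 1.09 ± 0.56 (adjusted p = 0.426), Cd44 at ILMN_2474229 at -0.97 ± 0.46 (adjusted p = 0.394) and Ddt at the value above. Cxcr4 was at 0.43 without WT-nl-SP replicate 1, and ILMN_2474229 at -0.21 without slide 6.

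**Figure D4:**
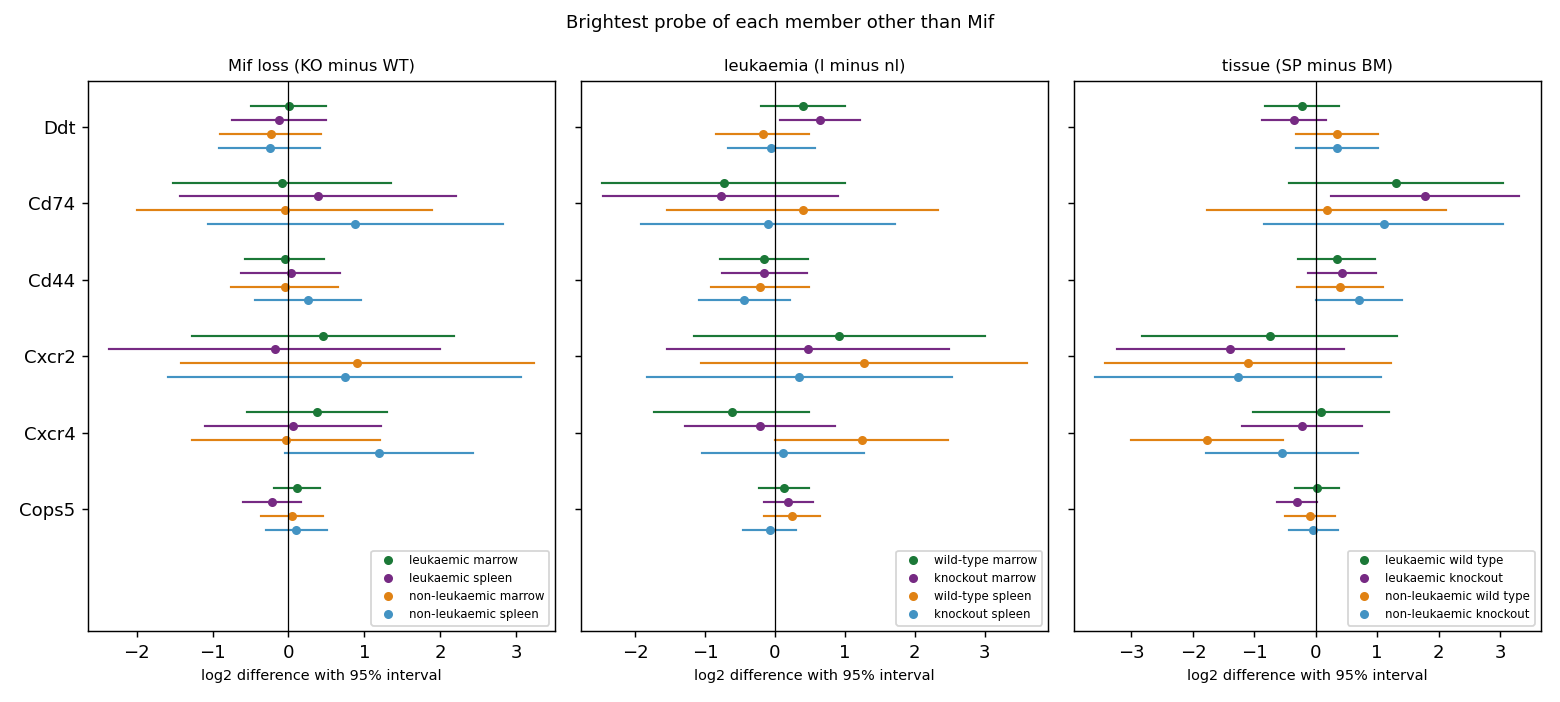
Log2 differences with 95% intervals (x axis) for the brightest probe of each member other than Mif (y axis), for KO minus WT (left), leukaemic minus non-leukaemic (middle) and spleen minus marrow (right), with 4 settings each. No difference passed the adjusted threshold, and the widest intervals are those of Cxcr2 and Cd74.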

How the data were processed

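RNA of sorted macrophages was labelled with biotin and hybridised to Illumina bead arrays, per the labels' protocols. The deposited table gives the authors' non-normalised probe intensity and a detection p-value for 45281 probes on 30 arrays. The authors' processed log2 values were deposited as well; the submitters' processing notes name Partek, and how they were normalised was not stated in any source used here. Column medians of these were 6.405 to 6.412, and each column had r = 0.99 to 0.997 with that array's log2 raw signal.

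The neqc function of limma 3.58.1 (R 4.3.3) removed background and normalised by quantiles (offset 16, negative controls inferred from detection p). The filter kept 23515 probes that reached a detection p under 0.05 on 3 arrays or more. Symbols came from the platform annotation, updated through RefSeq; of 45281 probes 34885 had 1 symbol, 18 several and 10378 none. The 8 group means were fitted with lmFit and eBayes, and 19 contrasts were adjusted by Benjamini-Hochberg over all kept probes at 0.05. Gene lists used the brightest kept probe of each of 11937 genes, with the same p-values, adjusted over all kept probes. For a probe undetected throughout a group, the fold is a bound against the lowest detected signal of each array. The fit was tested on simulated data.

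The members and lists were chosen with earlier results of these data known. Named are all member probes, up to 4 called genes of a list with the smallest p or otherwise 2, the 3 genes most like each member, and neighbours of Mif. Which of the 20 neighbours are printed was decided after their values were seen. Alternatives were the authors' values, other normalisations and filters, slide and replicate blocks, array weights and the compared groups alone. Others were 1 probe per gene and each array left out in turn. Slide 6, or WT-nl-SP replicate 1 together with KO-l-SP replicate 2, was also left out, as chosen after seeing the data. Replicate numbers were shared by 10 pairs of spleen and marrow arrays, of which 4 correlated above 0.1 (range -0.466 to 0.196), so they were not treated as pairs.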

Additional observations from a re-analysis of the deposited data

Results flagged for a closer look

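Cops5 at ILMN_2662124 read 8.75 on KO-l-SP replicate 2, against 8.19 for the nearest and 8.17 for the lowest of the other KO-l-SP arrays, and the gap to the nearest was 0.965 of the group's range. Among 54 sets of 1 probe in 1 group of 4 to 6 arrays, 1 had so distant an array, while this comparison of gap and range is expected to pick about 1 in 20 sets by chance. KO-l-SP replicate 2 was most similar to a marrow array (KO-l-BM replicate 1, r = 0.981).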

How the results depend on the processing

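The loss of Mif kept its direction in every alternative run, and 417 of 418 values of its 2 probes stayed called; at ILMN_2867835 the difference lay between -7.56 and -4.61. The exception was ILMN_1260512 in non-leukaemic spleen with the compared groups alone (-2.13, limma adjusted p = 0.101), which left 1 member probe called there. With the strict filter (detection p under 0.01 on at least 15 arrays), and with 1 probe per gene, 1 member probe was called in each of the 5 KO-against-WT comparisons, because ILMN_1260512 was not among the probes tested, and 1, of Cd44, in the mean spleen-over-marrow comparison. Slide as a random block also called 1 there. The authors' log2 values called 1 member probe for leukaemia in WT spleen (11% of all probes called), 2 for leukaemia in spleen (21.3%), 1 for tissue in WT-nl mice (13.7%) and 4 for tissue over the 4 settings (23.9%). Array weights called 4 for Mif loss in non-leukaemic marrow (8.5%), 2 for leukaemia in WT marrow (7.45%), 3 for leukaemia in marrow (15.2%), and for tissue 1 in KO-l (5.28%), 1 in WT-nl (10.3%) and 5 over the 4 settings (21.9%). Without WT-nl-SP replicate 1 and KO-l-SP replicate 2, a setting added after seeing the data, tissue called 3 in KO-l mice (8.33%) and 5 over the 4 settings (14.7%). Without slide 6, also added, the count of called member probes was the same in all 19 comparisons. For tissue, leaving out each array in turn called 0 to 2 in KO-l (0.0298% to 6.98% of all probes) and 0 to 1 in WT-nl (0.2% to 6.03%). Over the 4 settings it called 0 to 4 (9.57% to 15%). The cause of these changes was not tested. With the replicate block the count stayed at 2 for each KO-against-WT comparison and 0 for all others. Of 14331 alternative values of single probes, 47 gained and 1 lost a call. No value called in the main analysis changed sign, and a change of sign was counted only for such values. Values that were not called did change sign in some alternatives, as given above for Ddt, Cd74 and Cd44. Between 36.4% and 41% of probes were detected per array, and probes near background, as Cxcr2 and 3 Cd44 probes were on many arrays, limit what can be seen.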
